A study of Drosophila melanogaster with 87 samples.

Results

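Cytosolic ribosomal protein genes encode the protein subunits of the ribosome that translates nuclear mRNA. They were taken as every gene of the count table whose symbol starts with RpL, RpS, RpLP or RpSP followed by a digit, together with string of pearls, which the table lists as *RpS2*. This gave 92 of the 17562 genes, 54 with RpL symbols for the large subunit and 38 with RpS symbols for the small subunit. The RpL symbols include *RpL24-like* and *RpLP0-like*, which are related to yeast assembly factors. The symbol alone decided membership and no measured value entered, though the choice was made with earlier results of these data known. The 73 mitochondrial ribosomal protein genes, whose products form the separate ribosome of the mitochondrion, were kept apart as a comparison list.

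The study asked how m6A, the methyl mark that *Mettl3* writes on mRNA, bears on the heat shock (HS) response of the adult fly brain. All flies were males raised at 25 °C, collected 1 to 2 days after eclosion per the labels, while the study's methods give 6 days as the age at HS. They carried the ubiquitous driver DaGal4 with an RNAi transgene, so that the knockdown was not limited to the brain. The transgene was Control RNAi (BL35785, against mCherry), *Mettl3* RNAi (BL80448) or *Ythdc* RNAi (BL34627, against the nuclear m6A reader *Ythdc1*). Each target was reached by 1 RNAi line, and the control flies carried the driver and a transgene as well. HS was 30 min at 38.5 °C, and tissue was taken in basal conditions, directly after HS, or after 6 h or 24 h of recovery. In the *Mettl3* experiment, brains gave 6 libraries for each genotype in basal conditions and 6 after HS, 2 control and 3 *Mettl3* RNAi libraries at 6 h, and 3 of each genotype at 24 h. In the *Ythdc* experiment, brains gave 3 libraries for each of control and *Ythdc* RNAi, basal and HS. Whole heads in pools of 200 gave matched input and m6A-immunoprecipitation (IP) libraries of control and *Mettl3* RNAi flies, basal and HS, with 2 pools per group for an antibody abbreviated SYS and 3 for an antibody abbreviated NEB.

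In eukaryotes, the mRNAs of these genes are among the most abundant in every cell, and their products are assembled with ribosomal RNA in the nucleolus before export to the cytoplasm. In fly and vertebrate genomes, transcription of many of them starts in a run of pyrimidines, the TCT initiator of Drosophila, which also places a pyrimidine tract at the mRNA's 5′ end that couples its translation to growth signals. During HS, translation of most mRNAs is reduced while chaperone mRNAs are translated. Several fly ribosomal protein genes have a second copy, and in many such pairs 1 copy is mostly read in the germline.

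The total count on genes, in mega counts (M), was 19.4 to 47.6 M for the 35 brain libraries of the *Mettl3* experiment, 33.9 to 65.9 M for the 12 of the *Ythdc* experiment, 12.2 to 17.7 M for the 20 head inputs, 12 to 19.6 M for the 8 SYS IP libraries and 1.32 to 10.5 M for the 12 NEB IP libraries. In the *Mettl3* experiment, basal and HS replicates 1 to 3 held 21.7 to 27.5 M counts and replicates 4 to 6 held 37.8 to 47.6 M. *Mettl3* stood at 1.70 to 4.06 counts per mega count of the library (CPM) in the 17 control brain libraries and at 0.111 to 1.20 CPM in the 18 *Mettl3* RNAi libraries. *Ythdc1* stood at 109 to 210 CPM in control and 20.0 to 33.4 CPM in *Ythdc* RNAi brains. All 5 neuronal and glial markers were present in the control brains, at a summed 4080 to 6670 CPM. Retina markers summed to 21100 to 34200 CPM in the same libraries and germline markers to 2.36 to 3.87 CPM. CPM here were scaled by TMM factors, which set the middle of the gene distribution equal among the libraries of 1 experiment.

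In control basal brains, 80 of the 92 genes had a mean of at least 100 CPM, 3 lay between 1 and 100 CPM (*RpL34a*, *RpS15Ab* and *RpLP0-like*), and 9 lay under 1 CPM. Of these 9, *RpL10Aa*, *RpL22-like*, *RpL37b*, *RpL7-like*, *RpS10a*, *RpS19b*, *RpS28-like* and *RpS28a* did not reach 1 CPM in any of the 87 libraries. *RpL7-like* had 8 counts, *RpS28a* 2, *RpL10Aa* 13 and *RpL22-like* 41 over all libraries together. In all, 86 of the 92 genes passed the low-count filter in at least 1 comparison, and *RpL10Aa*, *RpL22-like*, *RpL7-like*, *RpS19b*, *RpS28-like* and *RpS28a* passed in none.

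Per kilobase of exon, *RpL41* had the highest level of all members in control basal brains, 1680 ± 379.9 CPM per kb (SD, n = 6), with libraries from 1228 to 2317. *RpS30* at 935.9 ± 94.3, *RpL36* at 932.1 ± 113.9, *RpL23* at 858.5 ± 76.3 and *RpL29* at 849.9 ± 88.9 CPM per kb followed, and the libraries of these 4 overlapped. The 5 genes were picked from the order of levels. *RpL32*, the RNA commonly used as the reference in RT-qPCR of fly samples, stood at 383.8 CPM per kb. The lower copies of the paralog pairs lay far below, with *RpL34a* at 116.8 and *RpS15Ab* at 20.1 CPM per kb. *RpLP0-like*, the fly gene related to the stalk protein *RpLP0* whose yeast counterpart Mrt4 acts in ribosome assembly, stood at 8.50 CPM per kb.

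The start sites of several members are shown because the letters CTTT near the start were more frequent in these genes than in other genes. Of those shown, *RpL34a*, *RpL24-like* and *RpL32* do not hold these letters there. Each stretch holds 12 bases before the annotated start site most used among a gene's transcripts and 12 bases from the site on, read 5′ to 3′ on the gene's strand, with capitals marking the letters CTTT where they lie from 6 bases before to 10 bases after the start. The sequences come from RefSeq, Release 6 plus (the dm6 genome), and the members shown are those with the most changed or most often used values in the results that follow.
RpL36 (chrX:629405-629428, minus strand): tcctgtccaaCTTTtttcgctctt
RpS14a (chrX:7933730-7933753, plus strand): acagctacgtcaaccttCTTTttt
RpS9 (chr3L:9511520-9511543, minus strand): cactaccttcacccctCTTTcttt
RpL22 (chrX:765119-765142, minus strand): tcgcttccgccttctgttCTTTtt
RpL34b (chr3R:9401215-9401238, minus strand): cgaacagggttgccacCTTTcttt
RpL34a (chr3R:26059256-26059279, minus strand): ttccagctctagcttctcttcttc
RpS19a (chrX:16637882-16637905, plus strand): acttcacgcgccttgttCTTTttt
RpL24-like (chr3R:11431571-11431594, minus strand): ctgactgccgatacattttcatat
RpL32 (chr3R:30046129-30046152, minus strand): gcttctggtttccggcaaggtatg

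Of the 90 members matched to the annotation, 50 (55.6%) held CTTT on their own strand in the window around the start, against 924 of 13945 protein-coding genes (6.63%). On the opposite strand, 0 of 90 members and 812 protein-coding genes (5.82%) held it. TATCGATA, the palindromic letters of the DNA replication-related element, lay between 250 bases before and 50 bases after the start of 27 members (30%) and of 1287 protein-coding genes (9.23%). GGTCACAC, the letters of the M1BP site, lay there on either strand in 13 members (14.4%) and 1086 genes (7.79%), and TATAAA lay 40 to 16 bases before the start on the own strand in 1 member (1.11%) and 1088 genes (7.8%). Of the RpL34 pair, *RpL34b* held CTTT at its start and *RpL34a* did not. The members' exon length ran from 288 to 3835 bases with a median of 901, against 1414 over all matched genes. They were spread over all large arms, with 19 on 2L, 20 on 2R, 14 on 3L, 23 on 3R, 13 on X and 1 on chromosome 4.

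Directly after HS, the members of control brains stood above the middle of all genes as a block. *RpL36*, a large-subunit protein, stood at 656.4, 781.9, 615.1, 638.6, 583.9 and 560.5 CPM in the control basal libraries and at 888.7, 847.7, 901.7, 784.6, 836.1 and 830.9 CPM after HS. Every HS library lay above every basal library. The difference was 0.45 on the log2 scale (SE 0.08, adjusted p = 0.00038, edgeR quasi-likelihood test with Benjamini-Hochberg adjustment), and with libraries scaled by their totals alone it was 0.05 with an adjusted p of 0.612. In bulk tissue, fewer cells of a type and less RNA per cell cannot be told apart.

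*RpS14a*, whose product forms part of the small subunit's platform, stood between 327.8 and 436.8 CPM (median 370.2) in the control basal libraries and between 461.5 and 512.7 CPM (median 492.2) after HS. The groups did not overlap, and the difference was 0.45 on the log2 scale (SE 0.07, edgeR adjusted p = 0.000113; 0.06 with totals alone). *RpS14a* (chrX:7933742-7934677) and *RpS14b* (chrX:7934898-7935792) are neighbouring, near-identical copies, so the split of reads between them is uncertain.

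Of the 84 members tested, 74 were called higher and 1 lower after HS in control brains (edgeR, adjusted p under 0.05), where 19.7% of all genes tested were called higher and 29.2% lower. The members' median log2 difference was 0.355, with its middle 50% from 0.324 to 0.387, against -0.02 over all genes. The direction rests on the scaling: with totals alone 0 members were called higher and 2 lower, the members' median was -0.04 and that of all genes -0.42, so that relative to the middle gene the members stood 0.371 higher with totals alone and 0.374 with TMM. Their summed share of all counts was 3.57% ± 0.532 (SD, n = 6) in basal and 3.476% ± 0.301 in HS libraries, and the ranges overlapped. The count of members called higher was between 62 and 80 when any 1 library was left out. It was 55 in replicates 1 to 3 alone and 77 in replicates 4 to 6 alone. For these refits the share of all genes called is not given here. Control basal replicate 2 had the highest share of counts, 4.537%, and without it the median was 0.417. Retina markers moved with HS in the same libraries, with 5 of 5 genes called higher at a median of 0.553 and a summed 32300 to 60000 CPM after HS. Muscle markers were called higher in 2 of 5 cases (median 0.753, up to 3.85) and summed to 227 to 490 CPM basal and 337 to 812 CPM after HS. The part of either in the members' difference was not tested.

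**Figure D1:**
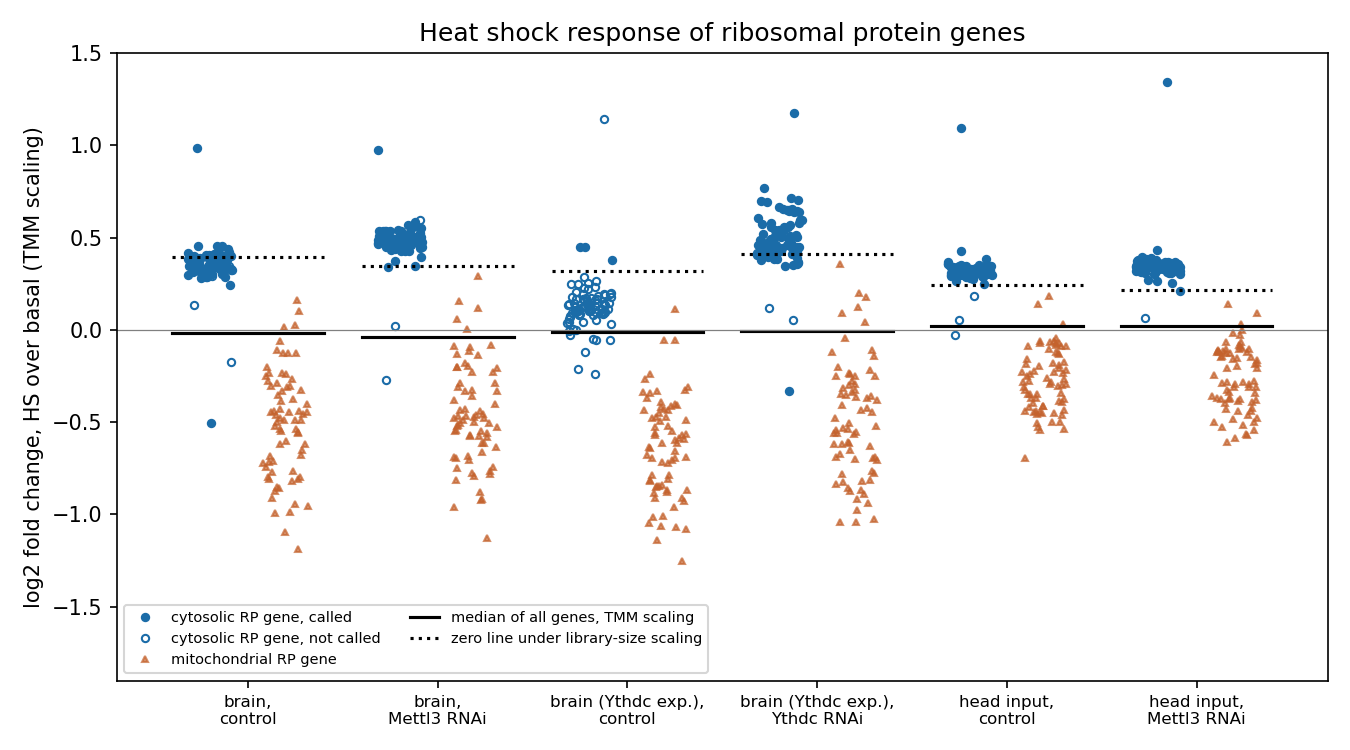
Log2 difference after HS (y axis) for each member in the 6 HS comparisons (x axis: control and *Mettl3* RNAi brains, control and *Ythdc* RNAi brains of the *Ythdc* experiment, control and *Mettl3* RNAi head inputs), with filled circles for called and open circles for other members, triangles for mitochondrial ribosomal protein genes, a solid line for the median of all genes and a dotted line for the place of 0 when libraries are scaled by totals alone. The members form a narrow band at medians from 0.122 to 0.491 above the zero of TMM scaling, which with totals alone runs from -0.187 to 0.143, and the mitochondrial genes lie mostly below.

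The band was narrow but not uniform. *RpL22* and *RpLP2* were among the 9 members not called in control brains, with *RpL13*, *RpL23A*, *RpL34a*, *RpL41*, *RpS10b*, *RpS15Ab* and *RpS27*. With the replicate number as a block, which paired these samples, 7 of the 9 were called higher and 81 members in all, and *RpL34a* (adjusted p = 0.0563) and *RpS15Ab* (adjusted p = 0.117) were not. *RpLP0-like* was the 1 member called lower. It stood at 7.03, 8.166, 5.586, 9.702, 9.212 and 8.638 CPM in control basal libraries and at 5.214, 5.555, 3.847, 5.269, 7.331 and 5.695 CPM after HS. HS replicates 5 and 6 overlapped with basal replicates 1 and 3, and the difference was -0.51 on the log2 scale (SE 0.15, edgeR adjusted p = 0.0159), lower under both scalings (-0.91 with totals alone). In *Mettl3* RNAi brains the same gene gave -0.27 (SE 0.16, adjusted p = 0.179), in *Ythdc* RNAi brains -0.33 (SE 0.09, adjusted p = 0.0183) and in control head inputs, where it stood higher at 23.3 to 30.4 CPM basal, -0.03 (SE 0.06, adjusted p = 0.725). *RpLP0-like* (chr2R:10098518-10099590, minus strand) overlaps *Jra* on the other strand, and whether the counting used strand is not given in the sources used here.

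Paralog pairs were compared within each library as a share of the pair per kilobase, which no scaling changes. *RpL34a* made up 21.5 to 23.8% of the RpL34 pair in control basal brains and 18.7 to 21.2% after HS, without overlap. The same pair gave 19.9 to 21.4% basal and 16.7 to 18.6% HS in the control brains of the *Ythdc* experiment, and 29.2 to 30.9% basal and 27.3 to 28.2% HS in the NEB control inputs, again without overlap. In the 2 SYS control inputs, at 28.3 to 31.9% and 27.4 to 29.1%, and in *Mettl3* RNAi brains, at 21.5 to 24.4% and 19.7 to 22.6%, the ranges overlapped.

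RpL34b (chr3R:9400237-9401226) itself rose by 0.41 after HS (SE 0.07, edgeR adjusted p = 0.000589; 0.01 with totals alone), and RpL34a (chr3R:26058420-26059267) gave 0.14 (SE 0.10, adjusted p = 0.281; -0.26 with totals alone). Without control basal replicate 2, RpL34a was 0.215 with an adjusted p of 0.0403. RpS15Ab made up 4.44 to 5.39% of the RpS15A pair in control basal brains and 3.13 to 4.04% after HS, and 4.31 to 4.98% and 3.08 to 3.71% in Mettl3 RNAi brains. In both genotypes each HS library lay below each basal library.

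*RpL22*, a large-subunit protein with a long amino-terminal extension in flies, differed between replicate sets. It stood at 350.9, 405.4 and 323.3 CPM in control basal replicates 1 to 3 but at 39.7, 64.61 and 110.5 CPM in replicates 4 to 6. After HS, the control libraries held 443.3, 445.7 and 461.5 CPM in replicates 1 to 3 and 100.5, 92.31 and 163.0 CPM in replicates 4 to 6. The sets did not overlap in either condition, and HS and basal libraries overlapped in replicates 4 to 6 but not in replicates 1 to 3. The HS difference was 0.44 over all 6 replicates (SE 0.61, edgeR adjusted p = 0.594), 0.36 (adjusted p = 0.0183) in replicates 1 to 3 and 0.77 (adjusted p = 0.173) in replicates 4 to 6. With the replicate block it was 0.608 (SE 0.14, adjusted p = 0.006). In *Mettl3* RNAi brains the basal levels were 223.1, 304.4 and 227.2 CPM in replicates 1 to 3 and 153.9, 167.3 and 142.5 CPM in replicates 4 to 6. *RpLP2*, an acidic stalk protein, showed the same division in control basal brains, 413.0, 465.4 and 355.9 against 197.8, 221.3 and 264.6 CPM. *RpL22* (chrX:762560-765130, minus strand) overlaps the non-coding gene *lncRNA:CR42491* on the same strand, so that reads in the overlap may be lost from either. What else set these replicate sets apart, beyond their total counts, was not tested.

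**Figure D2:**
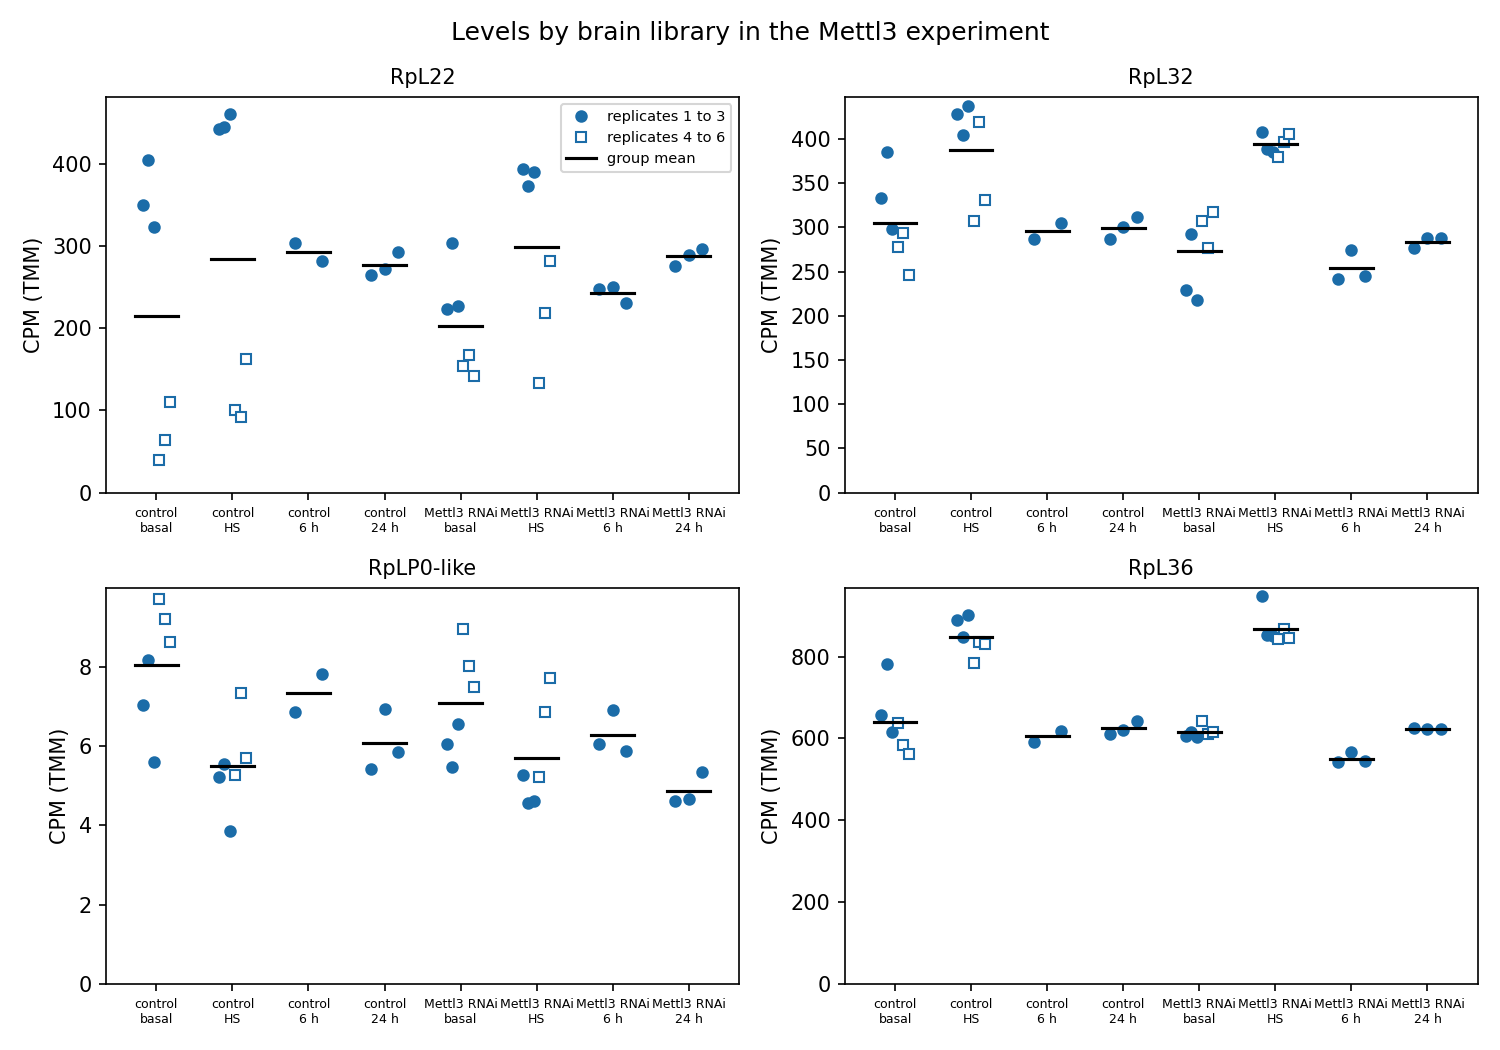
CPM with TMM scaling (y axis) of *RpL22*, *RpL32*, *RpLP0-like* and *RpL36* in each brain library of the *Mettl3* experiment by genotype and condition (x axis), with filled circles for replicates 1 to 3, open squares for replicates 4 to 6 and a line at the group mean. *RpL22* of control basal brains falls into a high set at 323.3 to 405.4 CPM and a low set at 39.7 to 110.5 CPM, *RpL32* and *RpL36* lie higher and *RpLP0-like* lower after HS at this scaling, while with totals alone the control differences of *RpL32* and *RpL36* are -0.01 and 0.05.

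By symbol, 43 of 50 RpL members were called higher in control brains after HS (median 0.355), and 1, *RpLP0-like*, lower. Of the RpS members, 31 of 34 were called higher (median 0.357). *RpLP0* and *RpLP1*, stalk proteins that recruit translation factors, gave 0.31 (SE 0.09, edgeR adjusted p = 0.0156) and 0.37 (SE 0.09, adjusted p = 0.00335), or -0.09 and -0.02 with totals alone. *RpLP0* was no longer called without control HS replicate 1 (adjusted p = 0.0502) or 3 (adjusted p = 0.0536). *RpL40* and *RpS27A*, which are made as fusions with ubiquitin, gave 0.34 (SE 0.10, adjusted p = 0.0119) and 0.31 (SE 0.07, adjusted p = 0.00442), or -0.06 and -0.09 with totals alone. *RpL24-like*, counterpart of the yeast assembly factor Rlp24, gave 0.44 (SE 0.08, adjusted p = 0.000546), and 0.04 with totals alone, the direction opposite to *RpLP0-like*. Median HS difference was 0.364 for the 49 members with CTTT at the start and 0.349 for the 34 without.

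Genes that work beside the members did not all go with them. Of the mitochondrial ribosomal protein genes, 59 of 72 tested were called lower and 0 higher in control brains (median -0.489, range -1.19 to 0.162), which relative to the middle gene was -0.47 under both scalings. Of 20 ribosome assembly genes, 14 were called lower and 0 higher (median -0.371), among them *Nop56*, a box C/D snoRNP protein, at -1.02 (edgeR adjusted p = 6.21e-06) and the nucleolar GTPase gene *Ns1* at -0.68. Of 13 genes of translation partners, 8 were called higher and 1 lower at this scaling (median 0.238), with *Rack1*, a scaffold on the small subunit, at 0.38 and the elongation factor gene *eEF2* at 0.33.

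In *Mettl3* RNAi brains after HS, 81 of 84 members were called higher and 0 lower (edgeR), where 18.3% of genes were called higher and 28.2% lower. The median was 0.49 against -0.04 over all genes, and with totals alone 30 members were called higher and 2 lower, at a median of 0.143 against -0.388. *RpS9*, a small-subunit protein, stood at 268.9, 311.9, 264.1, 337.5, 309.4 and 337.8 CPM basal and at 475.3, 421.8, 419.7, 414.4, 436.7 and 454.1 CPM after HS. All HS libraries lay above all basal ones (0.56, SE 0.06, adjusted p = 2.26e-05; 0.21 and still called with totals alone). The members not called were *RpL22*, *RpLP0-like* and *RpS15Ab*, and with the replicate block *RpL22* was called higher (0.552, adjusted p = 0.0168). In these brains 0 of 5 retina markers (median 0.132) and 0 of 5 muscle markers (median -0.75) were called.

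RpL32 (chr3R:30045229-30046161, minus strand) serves as an RT-qPCR reference on the premise that its level is steady. In control brains it stood at 333.1, 385.8, 297.7, 277.3, 293.2 and 245.8 CPM basal and 428.0, 404.4, 437.1, 306.7, 418.9 and 331.5 CPM after HS, and in Mettl3 RNAi brains at 228.7, 292.5, 217.9, 307.3, 276.3 and 317.0 CPM basal and 407.4, 388.3, 385.3, 379.1, 397.1 and 406.0 CPM after HS. The control groups overlapped and the Mettl3 RNAi groups did not. The log2 difference was 0.39 in control (SE 0.12, edgeR adjusted p = 0.0147) and 0.57 in Mettl3 RNAi brains (SE 0.08, adjusted p = 0.000143), and -0.01 and 0.22 with totals alone. The study normalized its RT-qPCR of chaperone RNAs after HS across tissues to b-tubulin. It measured *RpL32* by RT-qPCR as a non-modified transcript in its actinomycin D decay assay. The study's *RpL32* primers fix which part of the transcript was read there, and match the genome as follows.
RpL32 primer 1 (chr3R:30045771-30045797, minus strand): tgtccttccagcttcaagatgaccatc
RpL32 primer 2 (chr3R:30045604-30045624, plus strand): cttgggcttgcgccatttgtg

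The larger median in *Mettl3* RNAi brains was not called for any gene when the HS responses of the genotypes were tested against each other. The interaction was positive for 84 of 84 members at a median of 0.134, and 0 members were called, where 0% of 10503 genes were called in either direction. No member passed an unadjusted p of 0.05 and DESeq2 called 0. In replicates 1 to 3 the median was 0.282, with 84 positive, and in replicates 4 to 6 it was -0.01, with 39 positive. Without control basal replicate 2 it was 0.0662. Members share the scaling of their library, so that their signs are not independent of each other.

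**Figure D3:**
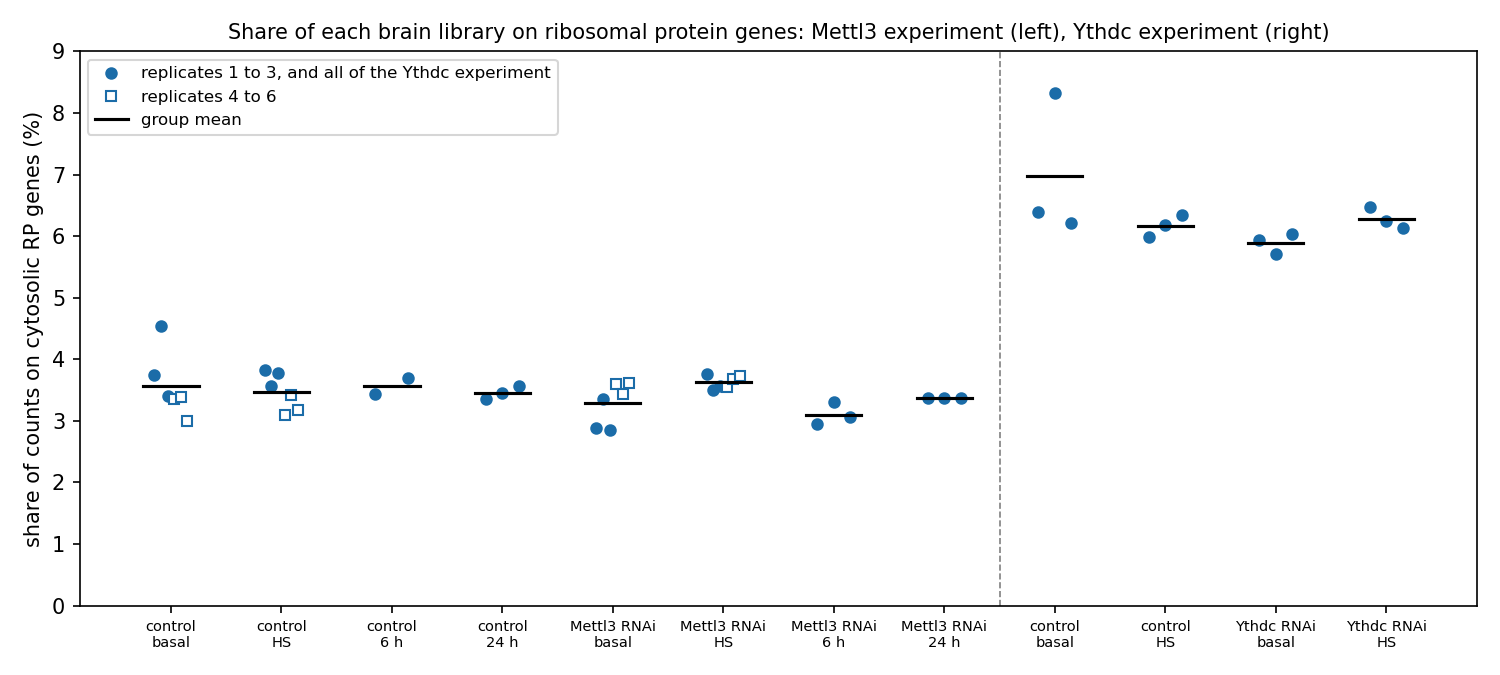
Summed counts of the 92 members as a percent of all counts on genes (y axis) in each brain library by experiment, genotype and condition (x axis), with points for libraries and lines for group means. In the *Mettl3* experiment the libraries lie between 2.849 and 4.537%, and in the *Ythdc* experiment between 5.706 and 8.32%, with control basal replicate 8 the highest.

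The summed share, which no scaling factor enters, was 3.57% ± 0.532 in control basal, 3.289% ± 0.343 in *Mettl3* RNAi basal, 3.476% ± 0.301 in control HS and 3.631% ± 0.110 in *Mettl3* RNAi HS brains (SD, n = 6 each). The groups overlapped. In basal replicates 1 to 3, control brains held 3.752, 4.537 and 3.408% and *Mettl3* RNAi brains 2.883, 3.353 and 2.849%. In replicates 4 to 6 the order was turned, with control at 3.348, 3.387 and 2.99% and *Mettl3* RNAi at 3.599, 3.433 and 3.617%. Within each set all 3 libraries of 1 genotype lay above all 3 of the other.

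In basal brains, *Mettl3* RNAi against control gave a median of -0.136 over 84 members, of which 2 were positive, and 0 were called, where 1.58% of genes were called higher and 0.607% lower. By edgeR 3 members were lower at an unadjusted p under 0.05, and DESeq2 called 0. The median was -0.353 in replicates 1 to 3, with 0 of 84 positive, and 0.0954 in replicates 4 to 6, with 80 positive and 1 called higher. The test of whether the genotype difference differed between replicate sets gave a median of 0.466 and called 0 members, where 0% of genes were called. Without control basal replicate 2 the median over all replicates was -0.0658.

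After HS, the genotypes differed by a median of 0.00679, with 48 of 84 members positive and 0 called, where 3.6% of genes were called higher and 2.72% lower. No member passed an unadjusted p of 0.05 in edgeR, and DESeq2 called 0. In replicates 1 to 3 the median was -0.0737, with 3 positive and 2 called lower, and in replicates 4 to 6 it was 0.0907, with 78 positive. One of the 2 was *RpL22*, at -0.22 (adjusted p = 0.0149) in replicates 1 to 3 and 0.82 in replicates 4 to 6.

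**Figure D4:**
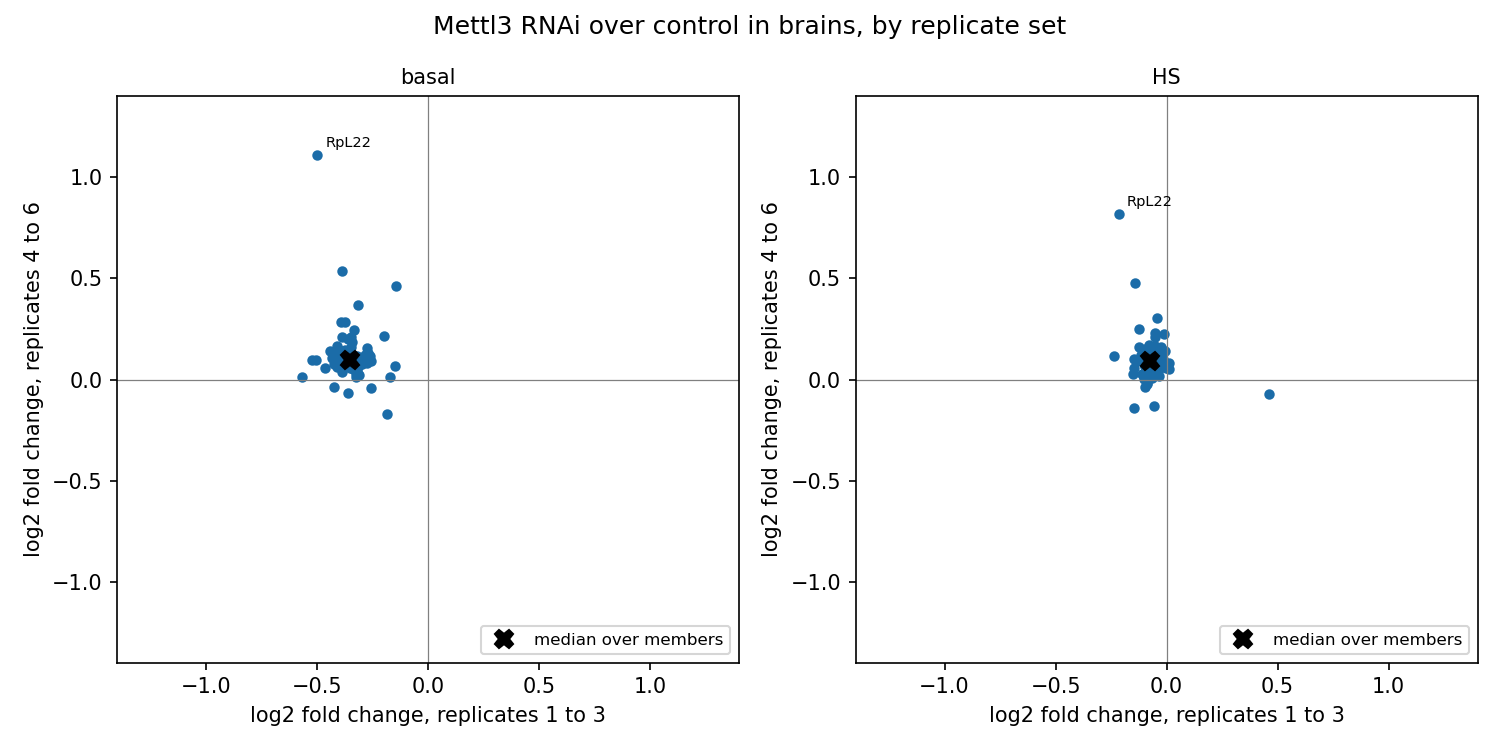
Log2 difference of *Mettl3* RNAi against control for each member in replicates 1 to 3 (x axis) and replicates 4 to 6 (y axis), in basal (left) and HS (right) brains, with an X at the members' median. In basal brains the median lies at -0.353 on the x axis and 0.0954 on the y axis, and after HS at -0.0737 and 0.0907.

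During recovery 0 members were called against basal replicates 1 to 3 at either time in either genotype. At 6 h the median was -0.242 in control brains, where 3.86% of genes were called higher and 2.95% lower, and -0.0839 in *Mettl3* RNAi brains, where 0.892% were called higher and 1.15% lower. At 24 h it was -0.179 in control, where 0.0409% of genes were called higher and 0.194% lower, and 0.121 in *Mettl3* RNAi brains, where 0% were called in either direction. At an unadjusted p under 0.05 by edgeR, the members numbered 13 and 2 lower at 6 h in control and *Mettl3* RNAi brains, 4 lower at 24 h in control, and 6 higher and 1 lower at 24 h in *Mettl3* RNAi brains. DESeq2 called 3, 1, 1 and 0 lower in the same order of comparisons. The 6 h control comparison had 2 recovery libraries.

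These medians depended on the basal reference. With all 6 basal replicates they were -0.147 and -0.208 at 6 h in control and *Mettl3* RNAi brains, and -0.0915 and -0.00639 at 24 h. Without *Mettl3* RNAi basal replicate 2, 75 members were called higher at 24 h in *Mettl3* RNAi brains, at a median of 0.197. The share of all genes called in that refit is not given here, so the count is not read as particular to the members. With totals alone the 6 h median in *Mettl3* RNAi brains turned to 0.0348.

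Between genotypes during recovery, the members stood lower in *Mettl3* RNAi brains at a median of -0.186 at 6 h, with 1 of 84 called lower where 1.39% of genes were called higher and 1.6% lower. The member was *RpL41*, a very small and basic large-subunit protein, at 519.7 and 513.2 CPM in control and 396.9, 405.4 and 372.5 CPM in *Mettl3* RNAi brains. The groups did not overlap (-0.40, SE 0.06, edgeR adjusted p = 0.0234). The call was lost without *Mettl3* RNAi replicate 1 or 3 (highest adjusted p = 0.09), and DESeq2 called 13 members lower. Under DESeq2 the share of all genes called is not given here.

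At 24 h the median was -0.0511, and 3 of 83 members were called lower, where 5.33% of genes were called higher and 3.86% lower. *RpL24-like* stood at 142.6, 145.0 and 147.0 CPM in control and 130.4, 127.3 and 130.0 CPM in *Mettl3* RNAi brains (-0.16, SE 0.02, edgeR adjusted p = 0.00644). *RpL34b* stood at 326.4, 353.8 and 349.7 against 313.4, 310.5 and 316.3 CPM (-0.12, SE 0.03, adjusted p = 0.0494). *RpL29* stood at 297.3, 301.3 and 307.2 against 286.5, 271.4 and 276.8 CPM (-0.11, SE 0.03, adjusted p = 0.0465). None of the 3 overlapped between genotypes, but they were picked by their calls, so this adds no support. The count moved between 0, without *Mettl3* RNAi replicate 2, and 15, without control replicate 1. No share of all genes called is given for these refits. The call of *RpL29* was lost whichever of the 6 libraries was left out (adjusted p = 0.0526 to 0.168), that of *RpL34b* in 5 of 6 cases and that of *RpL24-like* in 1.

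The *Ythdc* experiment repeated HS in control brains with 3 libraries per group, and there 3 of 85 members were called higher and 0 lower, where 5.22% of genes were called higher and 13.5% lower. *RpL3*, a protein close to the peptidyl transferase centre, stood at 981.7, 884.6 and 939.2 CPM basal and 1224, 1315 and 1234 CPM after HS. The groups did not overlap, which adds no support, since the gene was picked by its call (0.45, SE 0.09, edgeR adjusted p = 0.0191; 0.13 with totals alone). *RpL23A*, at the exit of the nascent chain, gave 0.38 (SE 0.09, adjusted p = 0.0293; 0.06 with totals alone), and *RpL22* gave 0.45 (SE 0.10, adjusted p = 0.026; 0.13 with totals alone). *RpL22* stood at 380.0, 326.7 and 336.7 CPM basal and 449.6, 456.5 and 499.9 CPM after HS, with no low set. Of the 6 omissions of a library, 4 lost the call of *RpL3*, 5 that of *RpL23A* and 4 that of *RpL22*. The highest edgeR adjusted p was 0.102, 0.135 and 0.101 in this order.

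The median over members was 0.122, and -0.187 with totals alone. It turned on control basal replicate 8, whose members took up 8.32% of counts against 6.209 and 6.396% in replicates 7 and 9. *RpL36* stood at 2016 CPM in replicate 8 against 1255 and 1297 CPM in the others, and at 1581, 1647 and 1699 CPM after HS. Without replicate 8 the count rose to 75 higher at a median of 0.319, and without replicate 9 it was 0 at a median of 0.00811. The share of all genes called in these refits is not given here, so the counts are not read as particular to the members. *RpL3* was at 884.6 CPM in replicate 8, below the others, so that not all members were high there. In this comparison 4 of 5 muscle markers were called higher (median 1.17) and 0 of 5 retina markers (median 0.575), and their part in the result was not tested.

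In *Ythdc* RNAi brains after HS, 81 of 85 members were called higher and 1 lower, where 25.8% of genes were called higher and 32.8% lower. The median was 0.491 (0.0824 with totals alone, with 29 called higher and 3 lower), and the member called lower was *RpLP0-like*. In the same comparison 4 of 5 retina markers (median 0.556) and 1 of 5 muscle markers (median 0.512) were called higher, and their part was not tested. *RpL32* rose from 521.1, 500.5 and 540.9 to 784.8, 716.2 and 753.4 CPM at this scaling (0.52, SE 0.05, edgeR adjusted p = 0.000319; 0.11 with totals alone). The difference between the HS responses had a median of 0.398, with 85 of 86 positive and 0 called, where 0.131% of genes were called higher and 0.168% lower. By edgeR 39 members were higher at an unadjusted p under 0.05, DESeq2 called 1, and without control basal replicate 8 the median was 0.165.

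*Ythdc* RNAi against control gave a basal median of -0.349 with 0 of 85 called, where 0.774% of genes were called higher and 3.11% lower. By edgeR 20 were lower at an unadjusted p under 0.05 and DESeq2 called 1 lower. Without control basal replicate 8 the median was -0.165 and 13 were called lower. The share of all genes called in that refit is not given here, so the count is not read as particular to the members. After HS the median was 0.0342, and 2 of 84 were called higher, where 2.45% of genes were called higher and 2.85% lower. They were *RpS14b*, at 255.1, 258.3 and 259.5 CPM in control and 299.9, 298.7 and 291.6 CPM in *Ythdc* RNAi brains (0.19, SE 0.04, adjusted p = 0.0345), and *RpL24-like*, at 252.1, 248.3 and 268.5 against 302.5, 315.0 and 315.5 CPM (0.26, SE 0.05, adjusted p = 0.0288). Neither overlapped between genotypes, which adds no support, since both were picked by their calls. Each call was lost in 5 of the 6 omissions of a library, with an adjusted p of up to 0.133 for *RpS14b* and 0.111 for *RpL24-like*. The count was 0 without control HS replicate 7 and 6 without replicate 9. No share of all genes called is given for these refits.

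In head inputs, HS gave 81 of 84 members called higher and 0 lower in control (median 0.322), where 15.6% of genes were called higher and 19.2% lower, and 83 of 84 higher in *Mettl3* RNAi heads (median 0.346), where 18.3% were called higher and 21.2% lower. With totals alone these counts were 0 and 20 higher, at medians of 0.0783 and 0.131 against -0.224 and -0.194 over all genes. *RpL32* stood at 460.3 to 518.7 CPM basal and 592.5 to 625.7 CPM after HS in the NEB control inputs and at 302.8 to 359.9 and 399.0 to 426.9 CPM in the SYS control inputs. Neither antibody's inputs overlapped between conditions. In the same inputs 5 of 5 retina markers were called higher in control (median 0.326) and *Mettl3* RNAi heads (median 0.298), and 4 of 5 (median 0.394) and 5 of 5 (median 0.479) muscle markers, whose part in the members' difference was not tested. In the 2 SYS pools alone 0 members were called (medians 0.334 and 0.434), and in the 3 NEB pools alone 80 and 79 were called higher. No share of all genes is given for these subsets.

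*Mettl3* RNAi against control in head inputs gave medians of -0.0283 basal and 0.00236 after HS, with 0 members called in each, where 2.45% of genes were called higher and 1.58% lower in basal and 1.91% and 0.81% after HS. By edgeR 2 members in each were lower at an unadjusted p under 0.05, and DESeq2 called 0. With the replicate number as a block, which paired the samples there, 1 was called lower in basal. Across 84 members, the HS difference of control brains had a Spearman correlation of 0.306 with that of control heads and 0.239 with that of the *Ythdc* experiment's control brains. These points share library depth and composition.

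In the m6A-IP of control basal heads with the SYS antibody, most members lay lower in the IP than in the input. Of 83 tested, 61 were called lower and 14 higher (edgeR), where 41.7% of genes were called lower and 37.4% higher, at a median log2(IP/input) of -0.395 against -0.07 over all genes. With 2 pools per group and the pool as a block each gene has 1 residual degree of freedom, so that the spread is mostly borrowed from other genes. Without the block 29 were called lower and 5 higher. RpL members were called higher in 12 and lower in 32 of 50 cases (median -0.246), and RpS members in 2 and 29 of 33 (median -0.54). The RpL members called higher included *RpL24-like* and *RpLP0-like*. Of the mitochondrial ribosomal protein genes, 17 were higher and 40 lower of 72 (median -0.337).

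*RpL22* had the highest ratio, with log2(IP/input) of 1.22 and 1.19 in the 2 SYS pools and 1.79, 2.00 and 1.91 in the 3 NEB pools. *RpLP0-like* gave 1.16 and 0.87 with SYS and 0.77, 0.53 and 0.58 with NEB. *RpL22* and *RpLP0-like* each overlap another gene, as given above, and the part of the overlaps in these ratios was not tested. *RpL34b* gave 0.95 and 0.67 with SYS and 1.11, 1.10 and 1.65 with NEB, and *RpL24-like* gave 0.83 and 0.69 with SYS and 1.62, 1.47 and 1.81 with NEB. In each of the 4 genes every pool was above 0, and fitted SYS values were 1.19 (SE 0.04), 1.01 (SE 0.07), 0.80 (SE 0.04) and 0.74 (SE 0.04).

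At the other end stood *RpL38* (chr2R:4515388-4516458), a short protein of the large subunit, at -2.30 and -2.30 with SYS and -4.65, -4.38 and -4.59 with NEB. *RpS15Ab* gave -1.45 and -1.32 with SYS and -1.86, -1.55 and -2.35 with NEB, and *RpL29* gave -1.22 and -1.34 with SYS and -2.94, -2.81 and -3.19 with NEB. *RpS24* gave -1.08 and -1.23 with SYS and -1.33, -0.78 and -1.01 with NEB. All pools of all 4 lay below 0. *RpS19a* gave -0.26 and -0.50 with SYS and -1.53, -1.34 and -1.59 with NEB, and *RpL32* gave 0.01 and -0.17 with SYS and -0.84, -0.49 and -0.59 with NEB.

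Across 83 members the Spearman correlation of SYS and NEB values was 0.837, and 74 had the same sign. NEB called 20 higher and 52 lower, where 40.2% and 46.6% of genes were, of which 11 higher and 49 lower were called so by SYS too, and 5 members were called in opposite directions. Among the 11 were *RpL3*, *RpL19*, *RpL22*, *RpL23A*, *RpL24*, *RpL24-like*, *RpL26*, *RpL34b*, *RpL36A* and *RpLP0-like*. Members of 1100 to 3835 bases of exon had a median SYS value of -0.155 (n = 28) against -0.557 for 754 to 1018 bases (n = 28) and -0.493 for 288 to 732 bases (n = 26), and across 82 members the Spearman correlation with exon length was 0.21.

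**Figure D5:**
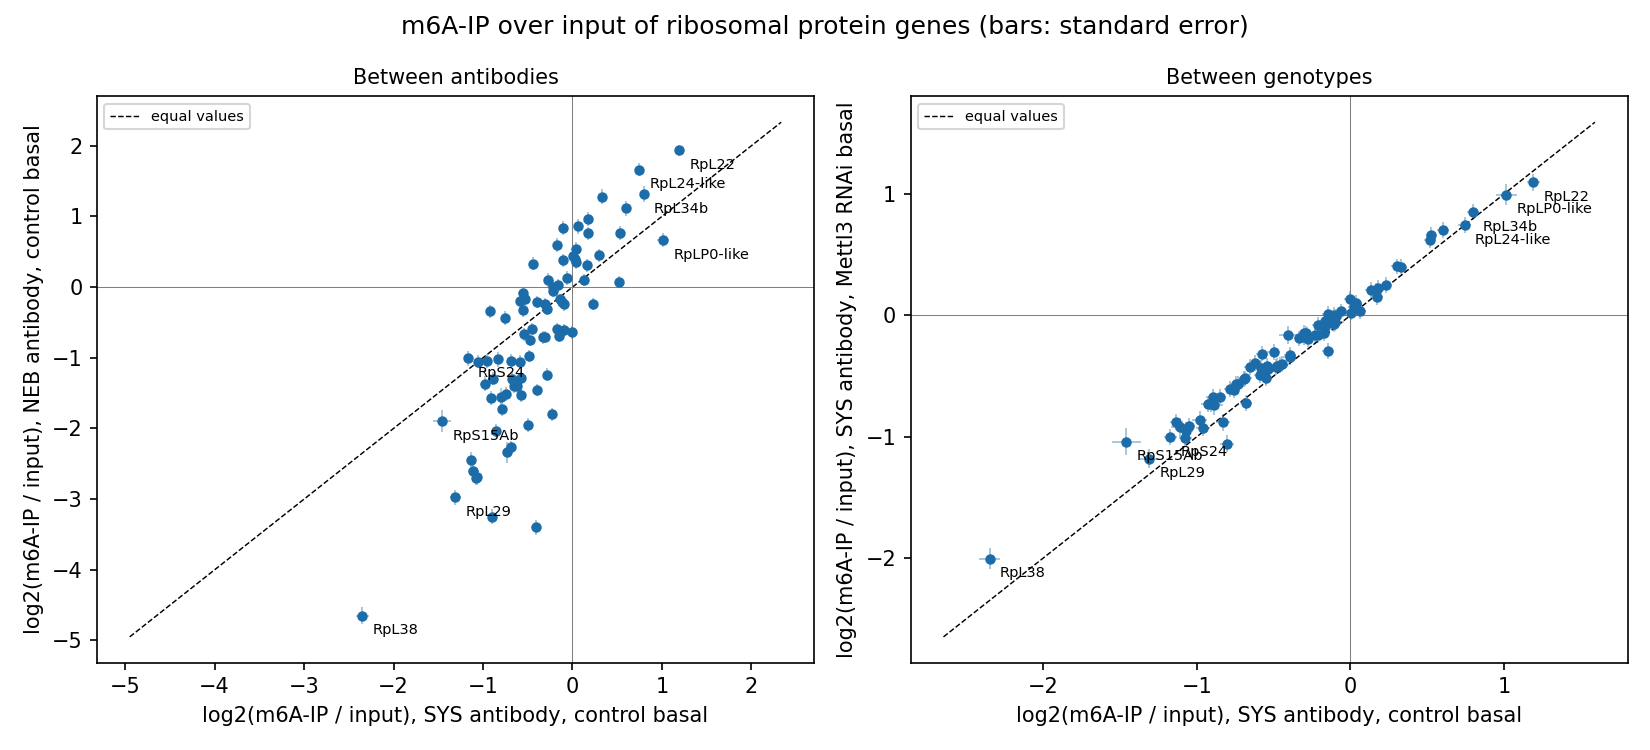
Fitted log2(IP/input) of each member with its SE, SYS (x axis) against NEB (y axis) in control basal heads on the left, and control (x axis) against *Mettl3* RNAi (y axis) in basal heads with SYS on the right. *RpL22* lies at the upper end (1.19 SYS, 1.93 NEB) and *RpL38* at the lower end (-2.35 SYS, -4.65 NEB), and in the right panel the members' medians are -0.395 in control and -0.303 in *Mettl3* RNAi heads.

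The same ratios were measured in *Mettl3* RNAi heads, where the basal SYS IP libraries are titled as m6A-IP while their antibody label reads none, and were grouped by title. In *Mettl3* RNAi basal heads 53 members were called lower and 15 higher with SYS (median -0.303), where 37.4% of genes were called lower and 34% higher, and the *RpL22* pools stood at 1.19 and 1.03. A gene whose IP signal over all its exons depends on *Mettl3* would give a lower ratio in *Mettl3* RNAi heads. The study instead called *Mettl3*-dependent m6A by peaks and placed most of it in the 5′UTR. A loss limited to a single peak may leave the ratio over the whole gene unchanged. A lack of calls here therefore does not show that the members lack such peaks. The test of the difference, *Mettl3* RNAi minus control, called 0 of 83 members in basal heads, where 9.02% of genes were called lower and 1.4% higher. Without *Mettl3* RNAi pool 1 it called 30 members higher and without *Mettl3* RNAi pool 2 it called 1 lower. Its median over members was 0.0989, with 75 positive, and by edgeR 20 were higher and 2 lower at an unadjusted p under 0.05, while DESeq2 called 0. *RpS19a* gave 0.05 (SE 0.07) with SYS. With NEB the same test called 15 of 83 members higher and 0 lower, at a median of 0.315. The share of all genes called is not given for that NEB test, nor for the refits that left out a pool. Their counts are not read as particular to the members.

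After HS, 61 members were called lower and 13 higher in control heads (median -0.378), where 38.3% of genes were called in each direction, and 49 lower and 16 higher in *Mettl3* RNAi heads (median -0.27), where 33.7% and 33.3% were. The difference between genotypes was called for 6 of 84 members, all with a higher ratio in *Mettl3* RNAi heads, where 1.72% of genes were called higher and 10.5% lower. *RpS15Aa*, a small-subunit protein, gave -1.50 and -1.19 in control and -1.06 and -0.84 in *Mettl3* RNAi pools (0.40, SE 0.10, edgeR adjusted p = 0.0157). *RpL9* gave -0.97 and -0.76 against -0.68 and -0.43 (0.32, SE 0.10, adjusted p = 0.0392), and *RpS4* gave -0.89 and -0.67 against -0.54 and -0.40 (0.31, SE 0.09, adjusted p = 0.0281). The pools of the genotypes did not overlap for these 3, which were picked by their calls, with 2 pools per genotype. Leaving out 1 pool at a time, its IP and input together, gave between 0 members, without control pool 1, and 33, without *Mettl3* RNAi pool 1. Without control pool 1 the adjusted p was 0.426 for *RpS15Aa*, 0.521 for *RpL9* and 0.533 for *RpS4*. *RpL3* and *RpL13* were among the remaining 3. With NEB 6 members were called as well, *RpL12*, *RpL17*, *RpL27A*, *RpL32*, *RpS7* and *RpS27A*, where 0.916% of genes were called higher, and 0 were shared with SYS. DESeq2 called 1 member with SYS, and without the pool as a block edgeR called 0. The refits that left out a pool come without the share of all genes called. Their counts are not read as particular to the members.

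From basal to HS, the SYS ratio changed by a median of -0.0702 in control heads, with 1 of 83 members called lower, where 0.336% of genes were called lower and 1.33% higher. The member was *RpL27*, at -0.92 and -0.96 basal and -1.30 and -1.17 after HS. The call was lost without control HS pool 1 (adjusted p = 0.052), and without control HS pool 2 the count was 8. With NEB it gave -1.28, -0.82 and -1.13 basal and -1.16, -1.04 and -0.77 after HS, where the groups overlapped. The count without control HS pool 2 comes without the share of all genes called. In *Mettl3* RNAi heads the median change was -0.02 and 0 of 84 members were called, where 0% of genes were called higher and 0.00958% lower, with 0 members at an unadjusted p under 0.05 by edgeR and 0 by DESeq2.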

How the data were processed

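The deposited table held raw counts per gene for 87 libraries, which the authors made with TrimGalore, STAR 2.7.3a on dm6 and summarizeOverlaps in union mode over FlyBase exons, not normalized and with no replicates pooled. 0 columns and 0 rows were left out. Brain libraries came from TruSeq stranded mRNA kits and head libraries from SMARTer stranded kits, and the strand setting of the counting is not given in the sources used here. Groups came from the sample labels, for the *Mettl3* RNAi basal SYS IP libraries from the titles, since their antibody label reads none. Brain replicates came from separate pools of brains.

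Counts were tested with edgeR 4.0.16 (R 4.3.3, limma 3.58.1; TMM, filterByExpr with a minimum count of 10 and total of 15, quasi-likelihood test) on the whole table, with Benjamini-Hochberg adjustment over all genes tested and calls at an adjusted p of 0.05. Head inputs had the experiment and IP comparisons the RNA pool as a term. CPM used TMM factors within each experiment, and ratios per pool an offset of 0.5 CPM. Alternatives were DESeq2 1.42.0, totals alone, scaling without the members, no low-count filter, the replicate number as a block, replicate sets, the NEB antibody and leaving out each library. Unless the share of all genes called is printed beside it, a count from an alternative fit shows only how calls moved. On simulated data of the control brain HS comparison, 74.5% of changes of 1 and 42.9% of 0.5 on the log2 scale were recovered among 9944 genes. Libraries compared by their counts gave 0 duplicates.

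Samples with the same replicate number deviated together, every pair above 0.1, for HS in control brains (0.30 to 0.69) and *Mettl3* RNAi brains (0.10 to 0.68), for HS in *Mettl3* RNAi head inputs (0.12 to 0.43) and for the genotypes of head inputs in basal (0.18 to 0.72) and HS (0.18 to 0.78), and the numbers were taken to pair the samples there. The main fits of these comparisons did not use this pairing. It entered only the alternative fits with the replicate number as a block.

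The members and lists were chosen with earlier results of these data known. Named were up to 3 of the largest called changes per direction with a mean count of 100, the 4 highest and 4 lowest IP ratios, stalk, ubiquitin-fusion, assembly-related and paralog genes, *RpL32* and *RpS19a*. Members called where 5 or fewer were called, the 5 genes of highest level and *RpLP2* and *RpL22* by replicate set were named after their values were seen. Lack of overlap in genes named for their calls or the size of their change describes them and is not further support. *RpL37a* and *RpL37b* were not matched to the annotation. Results of some members are not reported here.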

Additional observations from a re-analysis of the deposited data

Results flagged for a closer look

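The members' share and single members were tested for a library far from the rest in groups of 6 libraries. Of 112 such tests, 6 flagged one, where chance gives about 1 in 20 for independent tests. These tests use the same libraries and are not independent. *RpL34b* stood at 440.1 CPM in control basal replicate 2 against 334.3 to 372.4 CPM in the other 5 libraries. *RpS15Ab* stood at 10.02 CPM in control HS replicate 6 against 12.58 to 13.52 CPM. In *Mettl3* RNAi basal replicate 4, *RpL36* stood at 641.7 CPM against 603.7 to 616.2 CPM. The other 3 lay in *Mettl3* RNAi HS replicate 1, where *RpL36* stood at 947.8 CPM against 843.4 to 866.7 CPM, *RpL34a* at 90.02 CPM against 77.36 to 80.14 CPM, and *RpS19a* at 428.4 CPM against 389.5 to 399.4 CPM.

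The IP ratio with SYS differed between genotypes after HS, *Mettl3* RNAi minus control, for *RpS15Aa* by 0.4 on the log2 scale (edgeR adjusted p = 0.0157), *RpL9* by 0.32 (adjusted p = 0.0392), *RpS4* by 0.314 (adjusted p = 0.0281), *RpL3* by 0.283 (adjusted p = 0.0279) and *RpL13* by 0.258 (adjusted p = 0.0484). In control heads the ratio of *RpL27* differed between HS and basal by -0.308 (adjusted p = 0.0152).

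The members' share of all counts at 24 h minus the mean of basal replicates 1 to 3 was -0.447 percentage points in control brains, with libraries from -0.551 to -0.338, and 0.344 in *Mettl3* RNAi brains, with libraries from 0.335 to 0.351. All 3 control libraries lay below that mean and all 3 *Mettl3* RNAi libraries above theirs. The control libraries at 24 h, 3.348 to 3.561%, overlapped basal replicates 1 to 3, 3.408 to 4.537%, of which replicate 2 was the highest. Without basal replicate 2 the differences were -0.128 and 0.507 percentage points, and against all 6 basal replicates -0.118 and 0.0837. The difference between the genotypes was not tested.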

How the results depend on the processing

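With totals alone, the members called higher after HS went from 74 to 0 in control brains, 81 to 30 in *Mettl3* RNAi brains, 3 to 0 and 81 to 29 in control and *Ythdc* RNAi brains of the *Ythdc* experiment, and 81 to 0 and 83 to 20 in control and *Mettl3* RNAi head inputs, and those called lower from 1 to 2, 0 to 2, 0 to 2, 1 to 3 and, in control inputs, 0 to 1. The control brain median turned from 0.355 to -0.0441, and *RpL32* (-0.0105), *RpLP0* (-0.0909), *RpLP1* (-0.0234), *RpLP2* (-0.0294), *RpL40* (-0.0619), *RpS27A* (-0.0902) and *RpL34a* (-0.261) turned with it. Between genotypes, the members lower in *Mettl3* RNAi brains went from 1 to 2 at 6 h and 3 to 1 at 24 h. The members higher in the IP went from 14 to 7 (control basal), 15 to 9 (*Mettl3* RNAi basal), 13 to 7 (control HS) and 16 to 9 (*Mettl3* RNAi HS), those with a higher ratio in *Mettl3* RNAi heads from 0 to 5 in basal and 6 to 28 after HS, and those with a lower ratio after HS in control heads from 1 to 11.

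With DESeq2, the members called lower in recovery went from 0 to 3 at 6 h and 0 to 1 at 24 h in control and 0 to 1 at 6 h in *Mettl3* RNAi brains, those lower in *Mettl3* RNAi brains at 6 h from 1 to 13, and those lower in *Ythdc* RNAi basal brains from 0 to 1. Under HS in *Ythdc* RNAi brains 4 were higher than control in place of 2 and 3 lower in place of 0, the *Ythdc* interaction gave 1 higher in place of 0, and the IP difference between genotypes after HS gave 1 in place of 6. Without the low-count filter the changed counts were 1 lower at 6 h in control, 4 lower in *Mettl3* RNAi brains at 6 h, 1 lower in *Ythdc* RNAi HS brains, and 6 higher and 1 lower in the basal IP difference. With NEB, 32, 21 and 32 members were higher in the IP of *Mettl3* RNAi basal, control HS and *Mettl3* RNAi HS heads. By the same antibody 15 had a higher ratio in *Mettl3* RNAi basal heads, 0 fell after HS in control heads, and *RpL27* turned to 0.0854. These NEB counts come without the share of all genes called and are not read as a result about the members. In SYS inputs alone 0 members were called after HS in either genotype, and *RpLP0-like* turned to 0.0102.

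With the replicate block, control brains after HS gave 81 members higher, and *RpL22* between genotypes in basal turned to 0.334. The block gave 27 lower at 6 h in control, where the numbers did not pair the samples (correlations 0.05 and 0.13) and the labels' numbers differ from those in the study's own table, 1 lower in *Mettl3* RNAi HS brains, 0 at 6 h and 1 at 24 h between genotypes, 0 in control HS of the *Ythdc* experiment and 1 lower in *Mettl3* RNAi basal inputs. Without the pool as a block in the IP fits, 5 members were higher and 29 lower in control basal, 6 higher in control HS and 9 in *Mettl3* RNAi HS, and 0 were called in both the genotype difference after HS and the HS difference in control. With the replicate set as a term, which was chosen after seeing the data, 1 member was lower after HS in *Mettl3* RNAi brains and *RpL22* between genotypes in basal turned to 0.297. In replicates 1 to 3 the members called lower were 0 after HS in control and 2 between genotypes after HS, and in replicates 4 to 6 1 was higher between genotypes in basal, where *RpL22* turned to 1.11.

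Leaving out each library in turn gave 0 to 1 higher at 6 h and 0 to 75 at 24 h in *Mettl3* RNAi brains, 0 to 1, 0 to 1 and 0 to 15 lower between genotypes after HS, at 6 h and at 24 h, 0 to 75 higher after HS in control and 0 to 1 lower in *Ythdc* RNAi brains of the *Ythdc* experiment, 0 to 13 lower in basal and 0 to 6 higher in HS between its genotypes, and -0.307 to 0.198 for *RpL22* between genotypes in basal. For the SYS IP differences, where it was chosen after seeing the data, it gave 0 to 30 members higher and 0 to 1 lower between genotypes in basal, 0 to 33 higher after HS, 0 to 8 lower after HS in control, and for *RpS19a* between genotypes -0.0629 to 0.131 in basal and -0.0457 to 0.13 after HS. It was not run for the NEB pools, nor for IP against input within 1 SYS group, where 1 pool would remain with no residual degree of freedom. Beyond library omissions, 295 counts of members moved by less than 1.5 times and 58 by more. The causes of these changes were not tested. Depth limits the 8 members under 1 CPM in every library, and 2 or 3 libraries per group limit recovery, *Ythdc* and IP comparisons.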
